A study of Mus musculus with 20 samples.

Results

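The unfolded protein response and the chaperones of the endoplasmic reticulum (ER) were examined in liver RNA of mice that lacked Sirt2, that had been exposed to cold, or both. The set held 36 genes, taken by their symbols from the 45306 genes of the expression table, and all 36 passed the filter on low counts that left 15616 genes to be tested. By role, 11 were chaperones and their co-factors, 2 were lectin chaperones, 4 were protein disulfide isomerases, 8 served ER-associated degradation, 4 were the stress sensors and Xbp1, 4 were outputs of the PERK branch, and 3 belonged to the protein translocation channel or to the UFM1 modifier system.

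Secreted and membrane proteins enter the ER through the Sec61 channel, fold there with the help of chaperones and disulfide isomerases, and are passed to the proteasome when folding fails. When unfolded proteins build up, the sensors IRE1 (encoded by Ern1), PERK (encoded by Eif2ak3) and ATF6 raise the transcription of these helpers: IRE1 splices the mRNA of Xbp1 into the form that encodes an active transcription factor, ATF6 is cut to release one, and PERK slows translation while it favours that of Atf4. The hepatocyte secretes most of the proteins of blood plasma, and so depends on this machinery.

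One library per mouse was sequenced, from 20 mice in 4 groups of 5. Control mice were wild type and housed at 24 °C, CE mice were wild type and spent 3 h of each day at 4 °C over 3 weeks (intermittent cold exposure), Sirt2-/- mice carried the knockout and were housed as Control, and Sirt2-/-/CE mice carried it and had the same cold exposure. All were on a C57BL/6 background and aged 5 weeks when they were divided into groups. The knockout was made in fertilized eggs by CRISPR-Cas9 aimed at exons 5 to 7, so every tissue carried it, and neither the number of founder lines nor the age at sampling was given in the sources used here. The comparisons ask what cold and the loss of Sirt2, alone and together, do to liver metabolism under stress.

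Total counts per mouse ranged from 35499796 to 53917339. Sirt2, the targeted gene, was at 42.3 ± 1.305 CPM (counts scaled to a common library size, SD, n = 5) in Control and 21.95 ± 5.01 CPM in Sirt2-/- mice. The log2 difference was -0.94 ± 0.15 (SE, adjusted p = 0.0145 in edgeR), and Sirt2 was also lower without overlap in Sirt2-/-/CE than in CE mice. The deposited value counts reads over the whole gene and not over the targeted exons alone. The 7 hepatocyte markers summed to 112884 to 171559 CPM in Control (median 116642), 95003 to 133526 in CE (median 111231), 80205 to 127522 in Sirt2-/- (median 97803) and 91021 to 168341 CPM in Sirt2-/-/CE mice (median 105382). In Sirt2-/- against Control edgeR called 0 of the 7, beside 0.89% of all genes, with a median log2 value of -0.17. Among these 7, 0 were higher and 1 lower at an unadjusted p under 0.05, beside 8.14% of all genes higher and 6.78% lower. Of 11 pancreatic acinar markers, Prss2, Ctrb1, Cpa1 and Pnlip were at most 0.486 CPM in any mouse. All 11 summed to 5.53 to 16.9 CPM in Control, 11.7 to 17.1 in CE, 5.38 to 14.01 in Sirt2-/- and 6.72 to 19.4 CPM in Sirt2-/-/CE mice. The elastase gene Cela2a was at 9.64 CPM in CE replicate 8 and at 8.42 and 5.07 CPM in Sirt2-/- replicates 14 and 15. In bulk liver RNA, fewer cells of a type and less RNA per cell cannot be told apart.

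Many genes of this response share a promoter sequence, the ER stress response element (ERSE), which ATF6 and XBP1 bind together with NF-Y. RefSeq promoters on build GRCm38.p6, from 250 bases before to 50 bases after the start of transcription, were found for 29 of the 36 genes. ERSE was searched as CCAAT and CCACG with 9 bases between them, on either strand, and stood in 9 of the 29 genes (Hspa5, Hsp90b1, Dnajc3, Creld2, Calr, Canx, Pdia6, Syvn1 and Derl3), against 37 of 27025 genes with a promoter in the table (0.137%). The related ERSE-II, searched as ATTGG and CCACG with 1 base between them, stood in Dnajb11 and Herpud1, against 0.0444% of genes. The sites are shown with 6 bases on each side because they include the called genes Hspa5 and Creld2 described below. Each is read 5′ to 3′ on the strand of its gene, with the fixed letters of the element in capitals. A site that reads CGTGG first is the element on the opposite strand.
Hspa5, chr2:34772025-34772043: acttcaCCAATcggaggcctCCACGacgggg
Hsp90b1, chr10:86705638-86705656: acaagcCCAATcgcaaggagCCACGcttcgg
Hsp90b1, chr10:86705533-86705551: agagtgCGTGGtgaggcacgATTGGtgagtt
Dnajc3, chr14:118937827-118937845: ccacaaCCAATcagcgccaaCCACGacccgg
Creld2, chr15:88819520-88819538: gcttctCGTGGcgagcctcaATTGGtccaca
Calr, chr8:84847075-84847093: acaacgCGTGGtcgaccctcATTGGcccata
Canx, chr11:50325800-50325818: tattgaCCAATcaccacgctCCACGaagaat
Pdia6, chr12:17266491-17266509: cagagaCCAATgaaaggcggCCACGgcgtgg
Syvn1, chr19:6046532-6046550: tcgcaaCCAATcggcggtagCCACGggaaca
Derl3, chr10:75893242-75893260: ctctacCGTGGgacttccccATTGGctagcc
Dnajb11, chr16:22857852-22857862: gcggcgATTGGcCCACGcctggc
Herpud1, chr8:94386377-94386387: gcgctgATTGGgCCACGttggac

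All these sites but that of Dnajb11 lay within the 250 bases before the start, and Hsp90b1 held a pair of them on opposite strands. The ERSE-II of Dnajb11 began 7 bases past the first transcribed base. The whole 250 bases before the start are given for Hspa5, the textbook target of this response, and for Creld2, the called gene with the largest fold change, each on the forward strand of GRCm38.p6 and with the matched letters in capitals.
Hspa5, chr2:34771840-34772089: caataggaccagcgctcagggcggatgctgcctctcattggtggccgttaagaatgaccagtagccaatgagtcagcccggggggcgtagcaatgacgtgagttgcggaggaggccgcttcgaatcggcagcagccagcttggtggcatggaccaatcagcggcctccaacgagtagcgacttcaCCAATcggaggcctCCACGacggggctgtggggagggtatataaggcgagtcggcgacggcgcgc
Creld2, chr15:88819396-88819645: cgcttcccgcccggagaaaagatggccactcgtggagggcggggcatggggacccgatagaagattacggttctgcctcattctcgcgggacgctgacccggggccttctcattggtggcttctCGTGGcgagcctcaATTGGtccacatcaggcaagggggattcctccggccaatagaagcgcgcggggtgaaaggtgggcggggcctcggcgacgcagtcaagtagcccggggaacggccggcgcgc

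The core UPRE, TGACGTGG, stood in 0 of the 29 genes against 0.714% of all genes, and the C/EBP-ATF element bound by ATF4, TGATGNAA, stood in Herpud1 and Trib3, against 4.51% of all genes. No site of one element overlapped a site of another in these genes. A match describes the letters of this window and was not tested as a binding site. Hyou1, Manf, Hspa13, Sil1, Derl1, Atf6 and Sec61a1 had no promoter entry.

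Levels between genes were compared in FPKM, the authors' fragment counts divided by gene length and library size. Over the 20 mice, the mean level was highest for P4hb, a disulfide isomerase, at 470.4 ± 84.1 FPKM (SD). Next came Calr at 339 ± 98.8, Hspa5 at 305 ± 145, Hsp90b1 at 282 ± 99.4 and Herpud1 at 235 ± 102 FPKM. These SDs overlap from each gene to the next, and the means pool 4 groups in which the order differed. In Control mice the means were 375 FPKM for P4hb, 232 for Calr, 225 for Herpud1, 198 for Hsp90b1 and 166 for Hspa5, the lowest of the 5. In Sirt2-/- mice Hspa5, at 444 FPKM, stood second to P4hb at 517 and above Calr at 424, Hsp90b1 at 372 and Herpud1 at 228 FPKM. Xbp1 mRNA stood at 102 ± 39.5 FPKM, far above the sensors Atf6 at 11.4 ± 3.48, Ern1 at 7.71 ± 2.40 and Eif2ak3 at 3.97 ± 1.43 FPKM. The lowest of the set were Derl3 at 3.10 ± 4.09 and Trib3, a pseudokinase target of ATF4 and CHOP, at 2.15 ± 1.03 FPKM.

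Control mice had the lowest mean CPM of the 4 groups for 25 of the 36 genes, and Sirt2-/- mice the highest for 16. Single mice stood apart within the groups. Sirt2-/- replicate 13 was the lowest of its group for 22 of the 36 genes, and for 14 of the 17 chaperones, lectins and disulfide isomerases. Control replicate 4 was the highest of its group for the same numbers, 22 and 14. Sirt2-/-/CE replicate 16 was the highest of its group for 20 genes and replicate 19 the lowest for 17, and Control replicate 3 was the lowest of its group for 16.

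**Figure D1:**
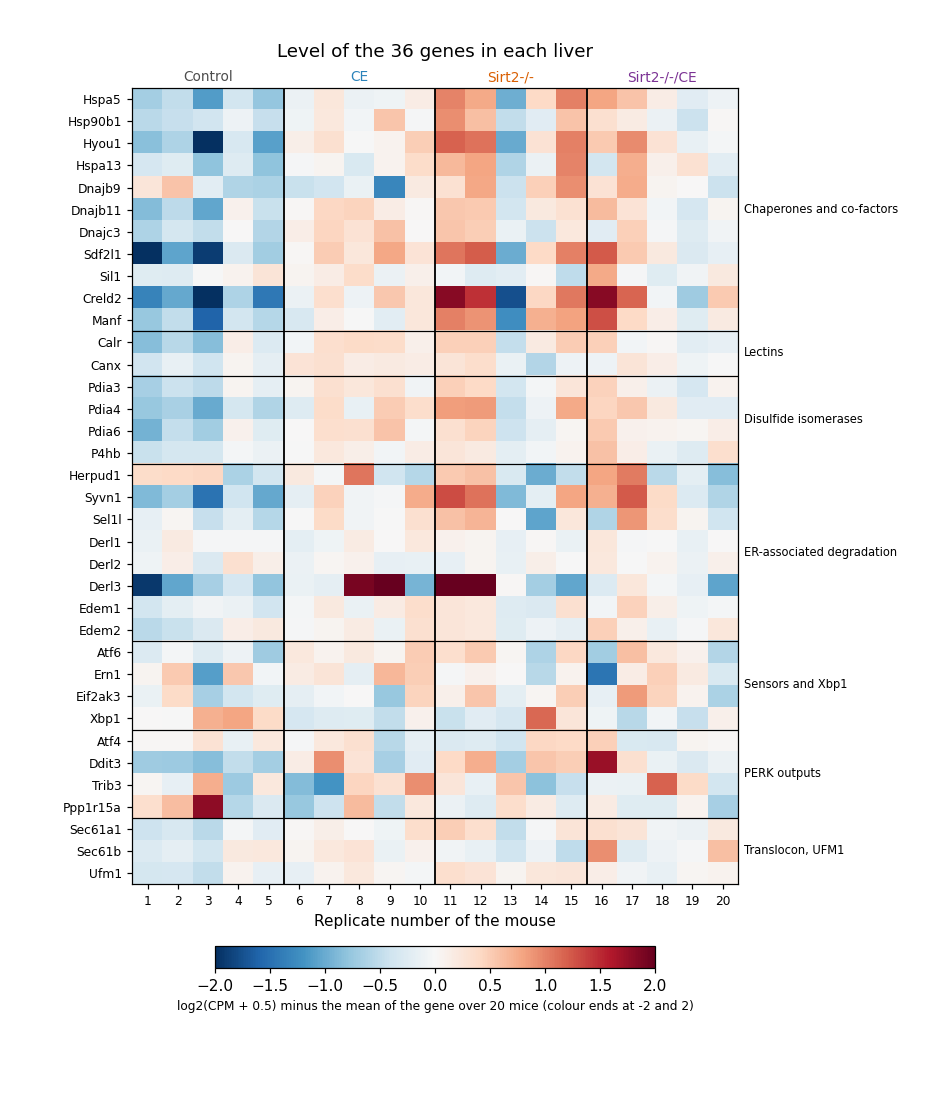
Level of the 36 genes (rows, grouped by role) in each of the 20 mice (columns, by replicate number and group), as log2 of CPM plus a small constant minus the mean of the gene, with red above and blue below that mean and colours ending at 2 log2 units. Most chaperone rows are blue in all 5 Control mice and in Sirt2-/- replicate 13, and red in Sirt2-/- replicates 11, 12 and 15.

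Hspa5 encodes BiP, the ER chaperone of the Hsp70 family that also holds the sensors inactive. In GENCODE, on GRCm38, the gene lies on chromosome 2, 34771970 to 34777547, and so begins upstream of the RefSeq start used for the promoter. It was at 575, 654, 425, 715 and 538 CPM in Control replicates 1 to 5 and 849, 1084, 852, 866 and 1027 CPM in CE replicates 6 to 10. Sirt2-/- replicates 11 to 15 measured 1839.9, 1555, 468, 1213 and 1861 CPM, and Sirt2-/-/CE replicates 16 to 20 measured 1595, 1373, 1019, 788 and 857 CPM. All 5 CE mice lay above all 5 Control mice. Of the Sirt2-/- mice, 4 lay above every Control and CE mouse, and replicate 13 lay among the Control mice. Hspa5 rose in Sirt2-/- against Control by a log2 fold change of 1.25 ± 0.28 (SE, adjusted p = 0.0407) in edgeR's quasi-likelihood test, with a 95% interval of 0.67 to 1.84. In CE against Control the fold change was 0.69 ± 0.28 (SE, adjusted p = 0.372) by the same edgeR test and did not pass.

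Hsp90b1 encodes GRP94, the Hsp90 of the ER. Its level was 545, 577, 607, 738 and 577 CPM in Control replicates 1 to 5 and 746, 915, 759, 1160.0 and 783 CPM in CE replicates 6 to 10. The values were 1507, 1202, 564, 677 and 1169.8 CPM in Sirt2-/- replicates 11 to 15 and 993, 883, 727, 587 and 808 CPM in Sirt2-/-/CE replicates 16 to 20. The CE mice again lay above all Control mice, though narrowly, and Sirt2-/- replicates 11, 12 and 15 were the highest of all 20 mice together with CE replicate 9. Neither edgeR fold change against Control passed the threshold, at 0.75 ± 0.22 (SE, adjusted p = 0.103) in Sirt2-/- and 0.52 ± 0.22 (SE, adjusted p = 0.410) in CE mice.

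Hyou1 encodes a large Hsp70-like chaperone that exchanges the nucleotide of BiP. It measured 119, 137, 44.8, 169 and 99.04 CPM in Control replicates 1 to 5 and 230.4, 265, 210.2, 223 and 297 CPM in CE replicates 6 to 10. Replicates 11 to 15, the Sirt2-/- mice, gave 480.1, 451, 105, 258 and 427 CPM, and replicates 16 to 20, the Sirt2-/-/CE mice, gave 303, 410.1, 258, 190.1 and 205 CPM. Control and CE mice did not overlap, and Sirt2-/- replicate 13 sat within the Control range while the other 4 Sirt2-/- mice lay at 258 CPM or more. Hyou1 rose in Sirt2-/- against Control by 1.60 ± 0.35 (SE, adjusted p = 0.0407) on the log2 scale, and the CE difference of 1.11 ± 0.35 (SE, adjusted p = 0.241) did not pass in edgeR.

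Sdf2l1 encodes an ER-resident partner of BiP complexes. Its level was 8.73, 17.8, 9.77, 30.6 and 22.99 CPM in Control replicates 1 to 5 and 38.2, 53.8, 44.01, 64.5 and 45.8 CPM in CE replicates 6 to 10. Among knockout mice it was 79.9, 88.4, 18.7, 49.7 and 76.5 CPM without cold (replicates 11 to 15) and 89.004, 54.5, 43.3, 30.8 and 33.7 CPM with it (replicates 16 to 20). It was low in Control mice, intermediate and without overlap in CE mice, and highest in Sirt2-/- replicates 11, 12 and 15 and Sirt2-/-/CE replicate 16. Sdf2l1 rose by 1.80 ± 0.39 (SE, adjusted p = 0.0407) in Sirt2-/- against Control in edgeR's test. The CE difference of 1.45 ± 0.39 (SE, adjusted p = 0.193) had the lowest p-value of the 36 genes in that comparison and did not pass.

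Creld2, an ER stress-inducible gene for a secreted protein with EGF-like repeats, varied widely between mice. It was at 25.7, 32.2, 13.9, 42.9 and 24.04 CPM in Control replicates 1 to 5 and 60.4, 83.6, 61.01, 95.5 and 76.96 CPM in CE replicates 6 to 10. Sirt2-/- replicates 11 to 15 measured 232, 181, 19.2, 87.6 and 137 CPM, and Sirt2-/-/CE replicates 16 to 20 measured 233, 149, 63.6, 39.9 and 95.3 CPM. Sirt2-/- mice spanned from the Control range in replicate 13 to the 2nd highest value of all mice in replicate 11, and Sirt2-/-/CE mice reached from the Control range to the highest value of all in replicate 16, while all CE mice lay above all Control mice. Creld2 rose by 2.25 ± 0.50 (SE, adjusted p = 0.0407) in Sirt2-/- against Control, the largest edgeR fold change among the genes called, with an interval of 1.19 to 3.30. In CE mice the difference was 1.44 ± 0.49 (SE, adjusted p = 0.280) by edgeR.

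Dnajc3, Dnajb9 and Dnajb11 encode J-domain co-chaperones that hand substrates to BiP. Dnajc3 was at 192, 230.4, 209.5, 294 and 197 CPM in Control replicates 1 to 5 and 321, 394, 359, 443 and 294 CPM in CE replicates 6 to 10. The values were 430.2, 415, 267, 219 and 342 CPM in Sirt2-/- replicates 11 to 15 and 252, 407, 290.1, 245 and 281 CPM in Sirt2-/-/CE replicates 16 to 20. CE mice lay above all Control mice, though CE replicate 10 barely exceeded Control replicate 4, and the other 2 groups spread across both ranges. Dnajb9 was at 88.03, 110.4, 64.2, 48.6 and 47.8 CPM in Control replicates 1 to 5 and 54.3, 56.4, 67.4, 29.6 and 84.2 CPM in CE replicates 6 to 10. Replicates 11 to 15, the Sirt2-/- mice, gave 92.1, 127, 54.8, 103 and 141 CPM, and replicates 16 to 20, the Sirt2-/-/CE mice, gave 91.1, 124, 77.3, 74.1 and 54.8 CPM. It had no such order, since Control replicates 1 and 2 exceeded all 5 CE mice and the lowest value of all was in CE replicate 9. In edgeR, Dnajc3 differed from Control by 0.69 ± 0.19 (SE, adjusted p = 0.196) in CE mice, the 2nd lowest p-value there, and Dnajb9 by -0.30 ± 0.30 (SE, adjusted p = 0.794). Dnajb9 had the 2nd lowest p-value of the set in Sirt2-/-/CE against CE, at 0.53 ± 0.30 (SE, adjusted p = 0.884). Neither gene passed in edgeR.

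Sil1 encodes the other nucleotide exchange factor of BiP. It was at 38.1, 37.7, 44.8, 47.1 and 54.1 CPM in Control replicates 1 to 5 and 47.02, 49.96, 58.2, 41.6 and 48.6 CPM in CE replicates 6 to 10. Among knockout mice it was 43.3, 37.5, 39.03, 45.8 and 31.6 CPM without cold (replicates 11 to 15) and 76.6, 44.6, 38.2, 43.1 and 51.6 CPM with it (replicates 16 to 20). Sirt2-/-/CE replicate 16 stood well above the other 19 mice, and the groups overlapped in every comparison. Its edgeR log2 fold change in Sirt2-/-/CE against Sirt2-/- was 0.37 ± 0.17 (SE, adjusted p = 0.673), and it was the only one of the 11 chaperones and co-factors with a value above 0 in that comparison. The remaining members, Hspa13, Dnajb11 and Manf, a secreted BiP-binding factor, had log2 fold changes of 0.94, 0.78 and 1.33 in Sirt2-/- against Control (edgeR adjusted p = 0.0799, 0.0772 and 0.0584).

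**Figure D2:**
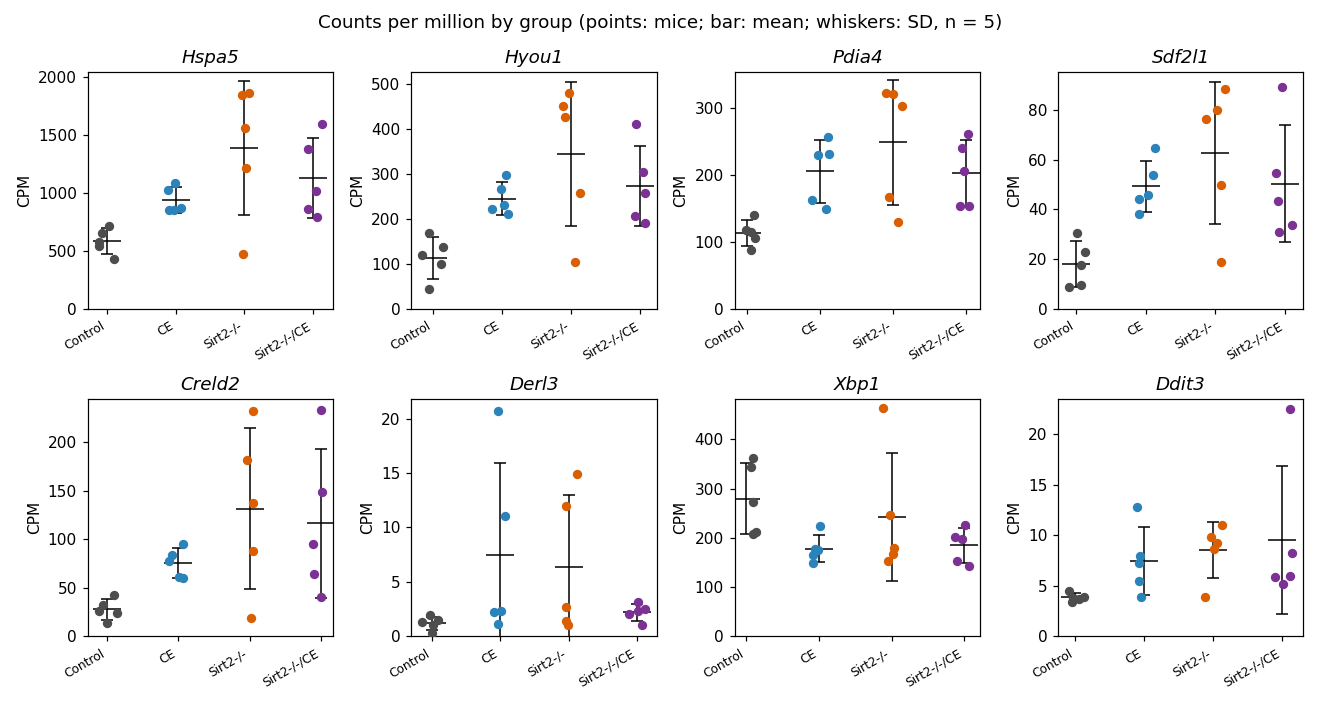
CPM (vertical axes, from 0) of 8 genes in the 4 groups, with a point per mouse, a bar at the mean and whiskers of 1 SD (n = 5, cut at 0). For Hspa5, Hyou1, Sdf2l1 and Creld2 the CE points lie above all Control points and 4 of 5 Sirt2-/- points lie above them too, while Derl3 is high in 2 CE and 2 Sirt2-/- mice.

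Pdia4 encodes ERp72, a disulfide isomerase of the BiP complexes. It was at 106, 114, 88.7, 141 and 118 CPM in Control replicates 1 to 5 and 149.7, 232, 163, 257 and 229.6 CPM in CE replicates 6 to 10. Sirt2-/- replicates 11 to 15 measured 321, 323, 129, 168 and 303 CPM, and Sirt2-/-/CE replicates 16 to 20 measured 241, 261, 206, 154 and 153 CPM. Every CE mouse exceeded every Control mouse, and Sirt2-/- replicates 11, 12 and 15 were the 3 highest of all, with replicate 13 within the Control range. Pdia4 rose in Sirt2-/- against Control by 1.13 ± 0.24 (SE, adjusted p = 0.0396), the lowest edgeR p-value of the set, and differed by 0.86 ± 0.24 (SE, adjusted p = 0.199) in CE mice. Calr and Canx, the lectins that retain unfinished glycoproteins, differed by 0.71 and 0.20 in Sirt2-/- mice and by 0.66 and 0.42 in CE mice on the log2 scale. Pdia3, Pdia6 and P4hb differed by 0.31 to 0.50 in Sirt2-/- and by 0.34 to 0.67 in CE mice, and none of these 5 lectins and isomerases passed in edgeR (lowest adjusted p = 0.0998).

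Derl3, a derlin that helps to pull misfolded proteins out of the ER, was nearly silent in most livers. It was at 0.315, 1.01, 1.46, 1.94 and 1.298 CPM in Control replicates 1 to 5 and 2.32, 2.23, 11.03, 20.7 and 1.12 CPM in CE replicates 6 to 10. The values were 14.9, 11.97, 2.65, 1.42 and 1.00 CPM in Sirt2-/- replicates 11 to 15 and 2.06, 3.14, 2.52, 2.27 and 0.991 CPM in Sirt2-/-/CE replicates 16 to 20. Only CE replicates 8 and 9 and Sirt2-/- replicates 11 and 12 exceeded 10 CPM, and the other 16 mice lay between 0.315 and 3.14 CPM. The edgeR log2 fold change was 2.64 ± 0.80 (SE, adjusted p = 0.230) in CE and 2.41 ± 0.80 (SE, adjusted p = 0.145) in Sirt2-/- mice against Control. Derl3 is abundant in pancreatic acinar and plasma cells. The defining markers Prss2, Ctrb1, Cpa1 and Pnlip of the former and Tnfrsf17 of the latter had 0 counts in all 10 mice of these 2 groups. The 8 plasma cell markers, summed, were 196 to 293 CPM in CE and 214 to 282 CPM in Sirt2-/- mice against 179 to 269 CPM in Control, most of it Sdc1, which hepatocytes also express. Of the 7 plasma cell markers tested, edgeR called 0 in either comparison, and at an unadjusted p under 0.05 it gave 0 higher and 2 lower in CE and 0 higher and 3 lower in Sirt2-/- mice, beside 5.22% and 6.78% of all genes lower. Mzb1, at under 1 CPM in every mouse, had the highest log2 values, 1.40 in CE and 1.65 in Sirt2-/- mice, and did not overlap Control in the latter. The immunoglobulin genes Ighm and Igkc differed by -0.42 and -0.97 in CE and by -1.27 and -0.87 in Sirt2-/- mice, where Ighm was lower without overlap. The 11 pancreatic markers, summed, were 11.7 to 17.1, 5.38 to 14.01 and 5.53 to 16.9 CPM, from Cela1 in every group and from Cela2a in a few mice. Cela2a, an elastase gene, was at 9.64 CPM in CE replicate 8, 8.42 in Sirt2-/- replicate 14 and 5.07 in Sirt2-/- replicate 15, and at most 2.17 CPM in the other 17 mice. It was thus high in 1 of the 4 mice with high Derl3 and low in the other 3. The part of acinar or plasma cells in the Derl3 values was not tested.

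Of the other degradation genes, Syvn1, the ubiquitin ligase Hrd1, had the largest differences, at 1.49 ± 0.38 (SE, adjusted p = 0.0584) in Sirt2-/- and 1.09 ± 0.37 (SE, adjusted p = 0.281) in CE mice against Control in edgeR. It was higher without overlap in CE mice. The ligase adaptor Sel1l, the derlins Derl1 and Derl2, the mannosidase-like Edem1 and Edem2, and Herpud1, a membrane protein of the degradation complex, differed by -0.11 to 0.46 in Sirt2-/- mice and by -0.11 to 0.39 in CE mice. Herpud1 carries an ERSE-II site as printed above, yet its mice overlapped widely, from 215 CPM in Sirt2-/- replicate 14 to 896 CPM in CE replicate 8.

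None of the 4 genes of the sensor group passed in any comparison by edgeR. Ern1, which encodes IRE1, was at 54.3, 75.2, 24.2, 76.2 and 50.5 CPM in Control replicates 1 to 5 and 58.8, 62.7, 46.1, 83.5 and 73.9 CPM in CE replicates 6 to 10. Replicates 11 to 15, the Sirt2-/- mice, gave 51.6, 55.7, 52.5, 35.6 and 55.3 CPM, and replicates 16 to 20, the Sirt2-/-/CE mice, gave 18.7, 58.4, 73.1, 59.5 and 42.4 CPM. Sirt2-/-/CE replicate 16 and Control replicate 3 were the lowest, and all groups overlapped. Eif2ak3, which encodes PERK, was at 16.001, 23.1, 10.8, 13.4 and 14.7 CPM in Control replicates 1 to 5 and 15.5, 16.96, 17.6, 10.1 and 23.96 CPM in CE replicates 6 to 10. Among knockout mice it was 18.8, 26, 15.3, 17.96 and 24.9 CPM without cold (replicates 11 to 15) and 15.7, 31.9, 24.1, 18.5 and 11.1 CPM with it (replicates 16 to 20). Its groups overlapped too, with the highest value in Sirt2-/-/CE replicate 17. In edgeR, Ern1 differed from Control by 0.21 ± 0.30 (SE, adjusted p = 0.877) in CE and -0.16 ± 0.30 (SE, adjusted p = 0.855) in Sirt2-/- mice. For Eif2ak3 the edgeR values were 0.11 ± 0.27 (SE, adjusted p = 0.947) and 0.40 ± 0.27 (SE, adjusted p = 0.515).

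Atf6 was at 68.4, 80.05, 69.1, 77.1 and 50.1 CPM in Control replicates 1 to 5 and 95.8, 87.02, 94.6, 86.1 and 118 CPM in CE replicates 6 to 10. Sirt2-/- replicates 11 to 15 measured 104, 119, 85.2, 53.5 and 109.7 CPM, and Sirt2-/-/CE replicates 16 to 20 measured 50.99, 125, 95.6, 87.6 and 54.8 CPM. CE mice lay above all Control mice, and the 2 groups with the knockout each held mice within and above the Control range. Its edgeR log2 fold change was 0.48 ± 0.23 (SE, adjusted p = 0.466) in CE and 0.45 ± 0.23 (SE, adjusted p = 0.367) in Sirt2-/- mice against Control.

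Xbp1 had a CE fold change below 0. It was at 212, 208, 344, 363 and 272 CPM in Control replicates 1 to 5 and 165, 176, 178, 148 and 223 CPM in CE replicates 6 to 10. The values were 153, 179, 166, 464 and 247 CPM in Sirt2-/- replicates 11 to 15 and 198, 143, 202, 153 and 226 CPM in Sirt2-/-/CE replicates 16 to 20. Each CE mouse lay below the Control mean, although CE replicate 10 exceeded Control replicates 1 and 2, and Sirt2-/- replicate 14 held the highest value of all. In edgeR the difference from Control was -0.65 ± 0.26 (SE, adjusted p = 0.360) in CE and -0.21 ± 0.26 (SE, adjusted p = 0.764) in Sirt2-/- mice. Xbp1 had the lowest p-value of the set for cold averaged over both genotypes, at -0.52 ± 0.18 (SE, adjusted p = 0.372) by edgeR, and did not pass. Counts per gene do not separate the spliced mRNA from the unspliced one, so these values say nothing of IRE1 activity.

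On the PERK branch, Atf4 encodes the transcription factor whose translation rises when PERK is active. Its mRNA was at 75.2, 75.3, 90.4, 66.2 and 85.8 CPM in Control replicates 1 to 5 and 72.7, 85.4, 91.98, 50.2 and 65.04 CPM in CE replicates 6 to 10. Replicates 11 to 15, the Sirt2-/- mice, gave 59.98, 61.8, 56.1, 97.8 and 97.7 CPM, and replicates 16 to 20, the Sirt2-/-/CE mice, gave 103, 59.5, 58.7, 76.6 and 74.7 CPM. The groups overlapped, and the edgeR log2 fold changes were -0.11 ± 0.20 (SE, adjusted p = 0.918) in CE and -0.07 ± 0.20 (SE, adjusted p = 0.906) in Sirt2-/- mice. Ddit3 encodes CHOP, a transcription factor linked to cell death under lasting ER stress. It was at 3.76, 3.73, 3.36, 4.48 and 3.87 CPM in Control replicates 1 to 5 and 7.24, 12.8, 7.89, 3.92 and 5.44 CPM in CE replicates 6 to 10. Among knockout mice it was 8.67, 11, 3.85, 9.79 and 9.27 CPM without cold (replicates 11 to 15) and 22.5, 8.22, 5.88, 5.21 and 5.95 CPM with it (replicates 16 to 20). CE replicate 9 and Sirt2-/- replicate 13 lay within the narrow Control range, the other mice of these groups lay above it, and Sirt2-/-/CE replicate 16 was far above the rest. The edgeR differences from Control were 0.96 ± 0.38 (SE, adjusted p = 0.361) in CE and 1.15 ± 0.38 (SE, adjusted p = 0.146) in Sirt2-/- mice, neither past the threshold. Ddit3 shares 68 of its 1713 exon bases with Mars on the other strand, Mars held 74.5% to 93.6% of the counts of the pair, and strand handling is not given in the sources used here. Trib3 and Ppp1r15a, the phosphatase subunit that restores translation, differed by -0.15 and -0.66 in Sirt2-/- mice on the log2 scale.

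The translocation channel subunits Sec61a1 and Sec61b and the modifier Ufm1 closed the set. Sec61b was at 35.4, 37.6, 32.9, 48.7 and 49.4 CPM in Control replicates 1 to 5 and 44.1, 49.3, 51.6, 38.96 and 45.2 CPM in CE replicates 6 to 10. Sirt2-/- replicates 11 to 15 measured 40.6, 38.5, 32.1, 39.7 and 29.9 CPM, and Sirt2-/-/CE replicates 16 to 20 measured 81.4, 35.5, 39.6, 41.8 and 65.2 CPM. Sirt2-/-/CE replicates 16 and 20 stood above the other 18 mice, and the groups overlapped. Sec61b had the lowest p-value of the set in Sirt2-/-/CE against Sirt2-/-, at 0.54 ± 0.20 (SE, adjusted p = 0.563) by edgeR. Ufm1 was just outside the threshold in Sirt2-/- against Control, at 0.48 ± 0.11 (SE, adjusted p = 0.0514), and Sec61a1 differed there by 0.45 ± 0.16 (SE, adjusted p = 0.177) in edgeR.

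Across the set, the loss of Sirt2 at room temperature gave the calls. Of the 36 genes, 5 rose in Sirt2-/- against Control (Pdia4, Sdf2l1, Hyou1, Hspa5 and Creld2) and 0 fell by edgeR with Benjamini-Hochberg adjustment, while 0.384% of all genes tested rose and 0.89% were called in either direction. At an unadjusted p under 0.05, 18 were higher and 0 lower, beside 8.14% of all genes higher and 6.78% lower. The median log2 fold change was 0.47 over the 36 genes and 0.02 over all genes. Of the 5 called genes, 4 were chaperones or co-factors and 1 a disulfide isomerase. For 0 of the 36 genes did the Sirt2-/- and Control mice separate without overlap, against 1.45% of all genes that were higher and 2.16% that were lower without overlap. Replicate 13 lay within the Control range for each of the 5 called genes. Just outside the threshold stood Ufm1, Syvn1 and Manf, with adjusted p-values of 0.0514, 0.0584 and 0.0584 in edgeR.

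These calls depended on single mice. Without Sirt2-/- replicate 13 edgeR called 13 of the 36 genes, beside 2.36% of all genes, and without Control replicate 4 it called 8, beside 1.31%. It called 0 without any one of Control replicates 1, 2, 3 and 5, beside 13, 5, 20 and 45 of all genes. It also called 0 without any one of Sirt2-/- replicates 11, 12, 14 and 15, beside 128, 25, 5 and 10 of all genes, against 139 with every mouse in. The fold changes of the 5 genes stayed above 0 in all these refits and in every other setting tried, and ranged from 1.12 to 1.48 on the log2 scale for Hspa5 and from 1.94 to 2.52 for Creld2. Scaling by library size alone moved the median of all genes in this comparison to 0.16 and the share of all calls that were higher from 43.2% to 78.8%. It called 13 of the 36 genes, all higher, beside 419 of all genes (2.68%), 330 of them higher.

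In CE against Control, edgeR called 0 of the 36 genes, beside 0.0064% of all genes, and DESeq2 called 3, beside 1.08% of all genes, and limma voom 9, beside 3.46%, all of these members higher. At an unadjusted p under 0.05, 20 genes were higher and 1, Xbp1, lower, beside 5.5% of all genes higher and 5.22% lower. The median was 0.40 for the 36 genes and -0.01 for all genes. In 11 of the 36 genes (Hspa5, Hsp90b1, Hyou1, Dnajc3, Sdf2l1, Creld2, Manf, Canx, Pdia4, Syvn1 and Atf6) every CE mouse lay above every Control mouse, beside 1.75% of all genes. For 0 of the 36 genes did every CE mouse lie below, beside 1.28% of all genes.

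CE and Sirt2-/- were both set against the same 5 Control mice, so their fold changes are given side by side only. The chaperones and co-factors had median log2 values of 0.69 in CE and 0.94 in Sirt2-/- mice, the disulfide isomerases 0.59 and 0.49, and the degradation genes 0.29 and 0.23. The 4 PERK outputs had medians of -0.03 and -0.11, but ranged from -0.73 to 0.96 in CE and from -0.66 to 1.15 in Sirt2-/- mice, with Ddit3 the highest in both. The coefficient of variation of Hspa5 was 19.1% in Control, 11.9% in CE, 41.6% in Sirt2-/- and 30.7% in Sirt2-/-/CE mice, a description with no test.

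Cold exposure added no call in mice without Sirt2. In Sirt2-/-/CE against Sirt2-/-, edgeR, DESeq2 and limma voom each called 0 of the 36 genes, beside 0% of all genes by edgeR, 0.0448% by DESeq2 and 0% by limma voom. At an unadjusted p under 0.05, 2 were higher (Sec61b and Sil1) and 0 lower, beside 3.96% of all genes higher and 3.29% lower, with a median of -0.12. Hspa5 differed there by -0.30, with a 95% interval of -0.87 to 0.27 on the log2 scale that holds 0.

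Loss of Sirt2 added no call in the cold. In Sirt2-/-/CE against CE, edgeR, DESeq2 and limma voom again each called 0 of the 36 genes, beside 0.0128% of all genes by edgeR, 0.199% by DESeq2 and 0.0128% by limma voom. Only Derl3 had an unadjusted p under 0.05, at -1.77 ± 0.77 (SE, adjusted p = 0.748), beside 2.2% of all genes lower at that p, and the median was 0.04. The interval of the Hspa5 difference was -0.31 to 0.84 on the log2 scale.

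**Figure D3:**
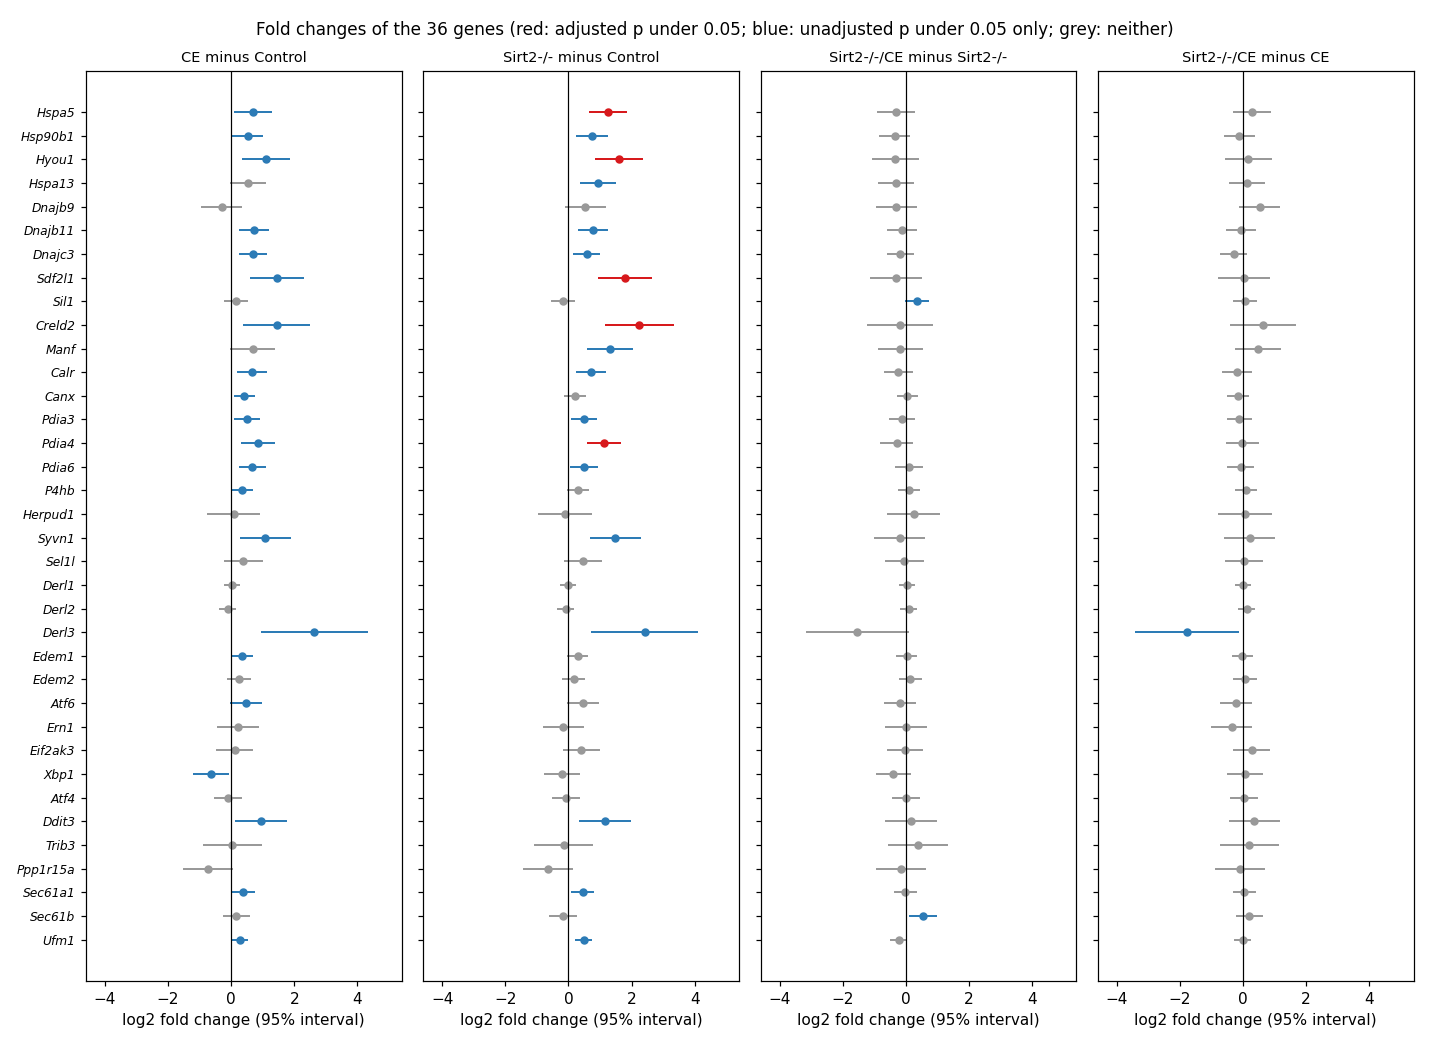
Log2 fold changes (horizontal axes) of the 36 genes (rows) in the 4 pairwise comparisons, with 95% intervals derived from the edgeR test. Genes are red where the adjusted p is under 0.05, blue where only the unadjusted p is, and grey otherwise. The 5 red genes are all in Sirt2-/- against Control, and the blue ones there and in CE against Control lie to the right of 0 except Xbp1.

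The interaction asks whether the effect of cold differed between genotypes. edgeR called 0 of the 36 genes, beside 0% of all genes, and 14 had an unadjusted p under 0.05 and a value below 0, beside 3.61% of all genes. The median was -0.47 over the 36 genes. Derl3 had the lowest p-value, at -4.18 ± 1.11 (SE, adjusted p = 0.342), followed by Pdia4 at -1.15 ± 0.34 (SE, adjusted p = 0.395) and Sdf2l1 at -1.77 ± 0.54 (SE, adjusted p = 0.395) in edgeR. A difference between genotypes in the effect of cold was therefore not shown for any of the 36 genes. Averaged over both temperatures, the knockout gave 0 calls by edgeR beside 0.186% of all genes, with 13 genes higher at an unadjusted p under 0.05 beside 8.01% of all genes. Creld2 led, at 1.43 ± 0.35 (SE, adjusted p = 0.0986). Averaged over both genotypes, cold gave 0 calls by edgeR beside 0% of all genes, and 7 genes with an unadjusted p under 0.05 beside 9.48%.

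Genes with the printed elements were compared with those without. Of the 11 genes with an ERSE or ERSE-II, 11 had a CE fold change above 0 and 10 an unadjusted p under 0.05, with a median log2 value of 0.69. For Sirt2-/- against Control the same 11 genes gave 10 above 0, 9 with an unadjusted p under 0.05 and a median of 0.75, and both Hspa5 and Creld2 were called. The 18 genes whose promoter held neither element had medians of 0.23 in CE and 0.30 in Sirt2-/- mice, with 7 higher and 1 lower at an unadjusted p under 0.05 in CE mice and 5 higher in Sirt2-/- mice. Pdia4 and Sdf2l1, both called, were among these 18. The 7 genes with no promoter entry had medians of 0.48 and 0.45, with 3 higher at an unadjusted p under 0.05 in CE and 4 in Sirt2-/- mice, and Hyou1 called. Of all genes tested, 5.5% were higher at that p in CE and 8.14% in Sirt2-/- mice. The elements were searched with the fold changes known, and no test of the difference was made.

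A wider list of the same pathways held 123 further genes, of which 122 passed the filter. In Sirt2-/- against Control, edgeR called 4 of them, all higher, beside 0.384% of all genes called higher. Mogs, the glucosidase that takes the first sugar off new glycans, rose by 0.78 ± 0.14 (SE, edgeR adjusted p = 0.0219), and its Sirt2-/- mice did not overlap the Control mice. Atf6b, the paralog of the ATF6 sensor, rose by 1.13 (edgeR adjusted p = 0.0340), Wfs1, an ER membrane protein, by 1.08 (adjusted p = 0.0407), and Ubxn4, a partner of the extraction ATPase p97, by 0.87 (adjusted p = 0.0407). The median of the 122 genes was 0.13, beside 0.02 for all genes, and 33 were higher and 1 lower at an unadjusted p under 0.05, beside 8.14% of all genes higher and 6.78% lower. Of these genes edgeR called 0 when only the 2 groups compared were fitted, with the clock score of each mouse, described further on, as a covariate, or without any one of Control replicates 2 and 3 and Sirt2-/- replicates 14 and 15, fits that called 0% to 0.195% of all genes. It called 1 without Control replicate 1, beside 0.0822% of all genes, and 11 without Sirt2-/- replicate 13, beside 2.36%, while limma voom called 30, beside 5.8% of all genes. For the knockout averaged over both temperatures, edgeR called 1 of the 122, higher and among the 4 named here, beside 0.186% of all genes. DESeq2 called 7 there (1.95% of all genes) and limma voom 7 (1.68%). That edgeR count was 0 with the clock score as covariate (0.0128%) and 8 without Sirt2-/- replicate 13 (0.736%).

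In CE against Control, edgeR called 0 of the 122, beside 0.0064% of all genes. DESeq2 called 3 of them, beside 1.08% of all genes, and limma voom 15, beside 3.46%, all of these higher. At an unadjusted p under 0.05, 24 were higher and 0 lower, beside 5.5% of all genes higher and 5.22% lower, and the median was 0.21, beside -0.01 for all genes. Stt3b, a catalytic subunit of the oligosaccharyltransferase, at 0.44, and Aars, the alanyl-tRNA synthetase and an ATF4 target, at 0.51, had the lowest p-values there (edgeR adjusted p = 0.187 and 0.191). The 22 ATF4 targets tested had 0 calls in each of the 4 pairwise comparisons by edgeR. Beside this, edgeR called 0.0064% of all genes in CE and 0.89% in Sirt2-/- against Control, 0% in Sirt2-/-/CE against Sirt2-/- and 0.0128% against CE. The median log2 values of the ATF4 targets against Control were 0.34 for CE and 0.20 for Sirt2-/- mice. In Sirt2-/-/CE against Sirt2-/-, the translocon subunit Sec61g at 0.60 and Mogs at -0.33 had the lowest p-values, and in Sirt2-/-/CE against CE, Sec61g at 0.54 and Phgdh, an enzyme of serine synthesis, at -3.00 (lowest edgeR adjusted p = 0.563 and 0.678).

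Other genes varied between mice beside the chaperones. The clock output genes Dbp, Tef, Per3, Ciart and Nr1d2 summed to 370.2 to 450.2 CPM in Control, 104 to 340.2 in CE, 26.2 to 402 in Sirt2-/- and 94.6 to 305 CPM in Sirt2-/-/CE mice, with none of the 5 at 0 in any mouse. Sirt2-/- replicates 14 and 15 were the lowest at 26.2 and 33.8 CPM, and replicate 13, which had Control levels of the called chaperones, was within the Control range here too with 402 CPM. Replicates 11 and 12, which were high for Hspa5 as replicate 15 was, were at 297 and 323 CPM. Arntl, Npas2 and Clock, whose promoters carry the opposite clock element, summed to 9.60 to 26.5, 19.5 to 91.4, 21.999 to 85.5 and 18.6 to 74.2 CPM in the same order of groups. Of these 3, edgeR called 0, with 3 higher at an unadjusted p under 0.05 in Sirt2-/- and 2 in CE mice against Control and median log2 values of 3.25 and 3.06, while the 5 output genes had medians of -0.97 and -0.78 and 0 at that p. Of all genes, 8.14% were higher at that p in Sirt2-/- and 5.5% in CE mice. A clock score of each mouse was made as the mean log2 CPM of the 5 genes minus that of the 3. With this score as a covariate, and without the 4 mice lowest in Dbp, edgeR called 0 of the 36 genes in Sirt2-/- against Control, and likewise 0 of all genes. Sirt2 itself had an adjusted p of 0.159 and 0.215 in these 2 edgeR fits. The median log2 value of the 36 genes was 0.51 and 0.51. The 4 mice left out were CE replicate 9, Sirt2-/- replicates 14 and 15, and Sirt2-/-/CE replicate 19, so no Control mouse was dropped. The clock score ran from 1.33 to 3.36 in Control and from -6.48 to 2.17 in Sirt2-/- mice, so the covariate itself differed between the groups compared.

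Of 9 genes that rise with feeding, among them Scd1 and Fasn of lipid synthesis, 9 were below 0 in Sirt2-/- against Control, with a median log2 value of -1.12, and edgeR called 1, Scd1, lower, beside 0.89% of all genes called. Their sum was 4363 to 12027 CPM in Control and 756 to 2561 CPM in Sirt2-/- mice, where replicates 13 and 14 were the lowest. The 17 cytosolic and mitochondrial chaperones, such as Hspa8 and Hsp90aa1, had 0 calls by edgeR in Sirt2-/- against Control, beside 0.89% of all genes. At an unadjusted p under 0.05, 10 of them were higher and 0 lower, beside 8.14% of all genes higher and 6.78% lower, with a median of 0.71. Replicate 13 was the lowest of the Sirt2-/- mice for their mean, as it was for the ER chaperones. The 6 endothelial markers summed to 47.2 to 202 CPM in Control, 31.99 to 153 in CE, 87.9 to 236 in Sirt2-/- and 155 to 253 CPM in Sirt2-/-/CE mice. edgeR called 0 of the 6 in any comparison. At an unadjusted p under 0.05, 6 of the 6 were higher in Sirt2-/-/CE against CE, beside 3.89% of all genes, with a median log2 value of 1.25 and 2 higher without overlap, beside 0.813%. For the knockout averaged over both temperatures 6 of the 6 were higher at that p, beside 8.01% of all genes, with a median of 0.78. Against Control, 0 were higher at that p in Sirt2-/- mice, with a median of 0.37, and 1 was lower in CE mice, with a median of -0.70. The 9 Kupffer cell and leukocyte markers summed to 157 to 412, 117 to 441, 256 to 441 and 308 to 504 CPM in the same order, with 0 calls by edgeR and 3 of 9 higher at an unadjusted p under 0.05 in Sirt2-/-/CE against CE and 3 for the averaged knockout. The stellate, cholangiocyte and erythroid markers and 8 genes that rise with fasting had 0 calls by edgeR in Sirt2-/- against Control, with medians of -0.11, -0.03, -0.37 and 0.12. The part of the clock, of feeding and of these cells in the chaperone differences was not tested.

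**Figure D4:**
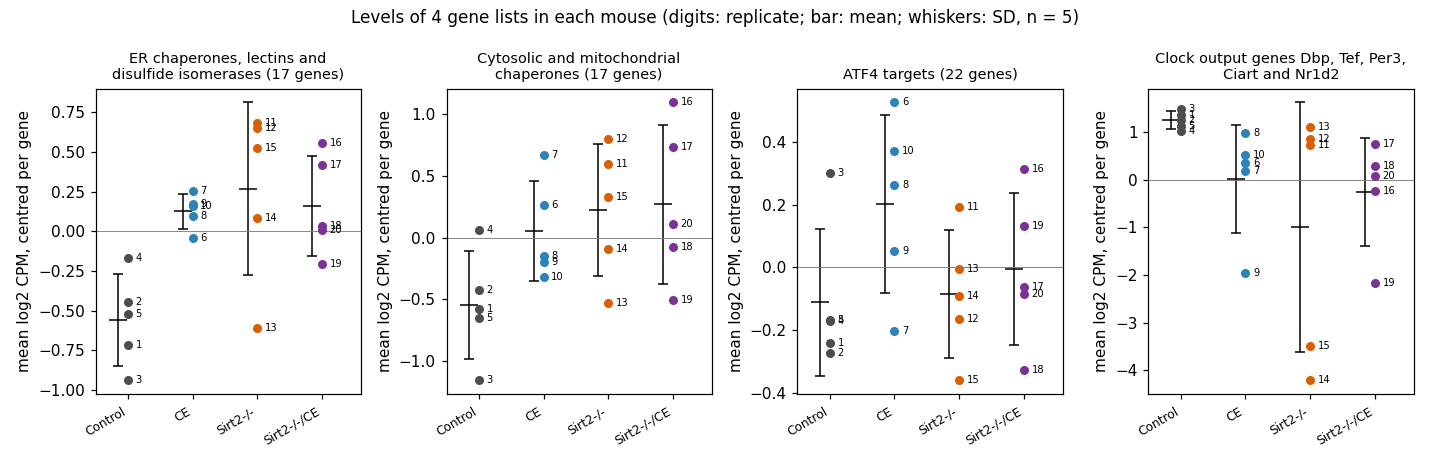
Mean log2 CPM, centred per gene (vertical axes), of 4 gene lists in each mouse, by group, with replicate numbers beside the points, a bar at the mean and whiskers of 1 SD (n = 5). Sirt2-/- replicate 13 is low for both chaperone lists and high for the clock genes, and Sirt2-/- replicates 14 and 15 are the lowest for the clock genes.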

How the data were processed

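Liver RNA was sequenced by the authors on an Illumina instrument after enrichment of polyadenylated RNA, with 1 library for each of 20 mice. The deposited table holds read counts per gene, without normalization, and FPKM values that the authors scaled by gene length and depth. The labels name the genome build mm10; the aligner, the counter and strand handling are not given in the sources used here. Nothing was realigned. Of the table's lines, 9 named no gene and were left out. Groups came from the labels, each mouse being 1 replicate; p-values measure the spread between mice, and interval widths follow from that spread and the 35499796 to 53917339 counts per mouse.

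Counts were fitted in R 4.3.3 with edgeR 4.0.16 (quasi-likelihood test, TMM, all 20 libraries, group as the only term) after filterByExpr (minimum count 10, minimum total 15), and p-values were adjusted by Benjamini-Hochberg over 15616 genes, with a call at an adjusted p under 0.05. The paper's general statistics (a test on pairs of groups) were not used for counts. The SE of an edgeR fold change was derived, as the absolute log2 fold change divided by the square root of the test's F statistic. The 95% intervals were built from this SE with the t distribution. CPM are counts scaled by the TMM-adjusted library size. Scripts were tested on simulated data. The alternatives were DESeq2 1.42.0, upper-quartile and library size scaling, 2 other filters, limma 3.58.1 voom with quality weights, limma on log2 of FPKM plus 1, a clock score as covariate, fits of 2 groups and fits that left out single mice; removal of the 4 mice lowest in Dbp was chosen after seeing the data. The 36 genes, lists, motifs and named genes were chosen with earlier results of these data known. Named with every value were genes called in any comparison, the 3 lowest p-values in each pairwise comparison, and Hspa5, Hsp90b1, Xbp1, Ern1, Atf6, Eif2ak3, Atf4, Ddit3 and Derl3; of the wider lists, genes called and the 2 lowest p-values per comparison. Creld2's promoter was chosen after its values were seen. Overlaps were taken from GENCODE vM21, near-identical genes from BLAST+ 2.17.0 at 95% identity over 150 bases. Such copies in the table held at most 2.23% of the counts of a pair, except Mis12, which overlaps Derl2 and held 16.5% to 27.2%. Figures used matplotlib 3.10.9 under Python 3.11.15.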

Additional observations from a re-analysis of the deposited data

Results flagged for a closer look

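In 3 of the 68 groups of 5 mice examined for the named genes, 1 mouse lay far from the other 4 by Dixon's ratio, and chance alone flags about 1 in 20 groups. Dnajc3 was at 407 CPM in Sirt2-/-/CE replicate 17, with the next mouse of its group at 290.1 CPM. Ddit3 was at 22.5 CPM in Sirt2-/-/CE replicate 16, against 8.22 CPM in the next mouse. Ern1 was at 35.6 CPM in Sirt2-/- replicate 14, below the next at 51.6 CPM.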

How the results depend on the processing

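No paired analysis was possible because the replicate numbers run from 1 to 20 and no number occurs in 2 groups. For Sirt2-/- against Control, where edgeR called 5 of the 36 genes, the share of all genes called is given beside each other count. DESeq2 called 12 (3.89%), library size scaling 13 (2.68%), a filter that asked 10 counts of every mouse 8 (1.7%), limma voom 21 (5.8%), limma on log2 FPKM 8 (2.11%) and upper-quartile scaling 5 (0.704%). Leaving the filter out gave 0 (0.135%), the fit of only the 2 groups compared 0 (0.195%), and the clock score as covariate and the fit without the 4 mice lowest in Dbp 0 of the 36 and 0 of all genes. Leaving out 1 mouse gave 0 to 13, with all-gene counts of 5 to 375. For CE against Control, where edgeR called 0, DESeq2 called 3 (1.08%) and limma voom 9 (3.46%). For the knockout averaged over both temperatures, where edgeR called 0, DESeq2 called 5 (1.95%), library size scaling 4 (0.717%), limma voom 2 (1.68%) and limma on log2 FPKM 1 (0.288%). Leaving out 1 mouse gave 0 to 5 there, with 5 without Sirt2-/- replicate 13 (0.736%). The counts of calls not named here were 0, also with 1 mouse left out. A fit of 2 groups cannot give the averages or the interaction. The causes of these shifts were not tested.

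Medians of the 36 fold changes moved by less than the spread between mice in every setting, and with 1 mouse left out they ranged from 0.37 to 0.47 for CE against Control and from 0.39 to 0.55 for Sirt2-/- against Control. That of Sirt2-/-/CE against CE, near 0, changed sign under limma voom (-0.09) and with single mice left out (-0.07 to 0.09). Over the 20 alternatives for Sirt2-/- against Control, edgeR or the other tool gave adjusted p-values of 0.00142 to 0.335 for Hspa5, 0.000847 to 0.321 for Hyou1, 0.000409 to 0.257 for Creld2, 0.00118 to 0.245 for Pdia4 and 0.000601 to 0.321 for Sdf2l1, each called in 8. Mrpl49 shares exon bases with Syvn1, and Dcaf1 with Manf, on the other strand, so the counting could have split their reads. All 36 genes passed the filter at these depths.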
